A study of Homo sapiens with 22 samples.

Results

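A set of genes of MHC class I antigen presentation were followed through single-cell RNA-seq and ATAC-seq of melanoma cells that were drug-susceptible or already primed for drug resistance. The members were HLA-B, HLA-C, HLA-E, B2M, TAP1, TAP2, TAPBP, PSMB8 and PSMB9, picked by symbol, and all 9 were found among the 33538 genes of the first single-cell experiment and among the 36601 genes of the second and of the third. In the first experiment, untreated barcoded WM989 cells, either a mixed sort or an EGFR/NGFR-high sort, were expanded and loaded on 8 chip wells. In the second, 1 library of untreated WM983B cells was made. In the third, barcoded WM989 cells grown from 1 well were split over 4 plates that were left untreated (control) or were treated for 5 days with TGFB1 at 5 ng/mL, with TGFBRi (the TGF-beta receptor inhibitor LY2109761) at 4 µM or with PI3Ki (the PI3K inhibitor GDC-0941) at 2 µM, with 2 samples run in parallel. The treatment labels name the 2 libraries of each condition Mix and Primed, whereas the methods call the parallel samples replicates. WM989 and WM983B are human BRAF-mutated melanoma lines that had not seen a BRAF inhibitor here, and each was used as a clone grown from a single cell. ATAC-seq, which reads open chromatin, was done on untreated WM989 cells sorted in triplicate as EGFR-high, NGFR-high, EGFR/NGFR-high or a comparison sort that the labels call Mix and the methods describe as negative for both markers.

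Class I molecules show fragments of a cell's own proteins on its surface, where CD8 T cells read them. Each molecule is a heavy chain (such as HLA-B, HLA-C or the non-classical HLA-E) bound to the invariant light chain B2M. The proteasome cuts proteins into peptides, and its inducible catalytic subunits PSMB8 and PSMB9 replace PSMB5 and PSMB6 to form the immunoproteasome. The transporter TAP1/TAP2 carries peptides into the endoplasmic reticulum, and tapasin (TAPBP) holds the empty heavy chain beside the transporter until a peptide is bound. Interferon, acting through IRF1 and the transactivator NLRC5, is the best known inducer of these genes, and loss of class I display is a known route by which melanoma escapes T cells.

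The first experiment held 12531 cells in 8 wells (408 to 3841 per well) and 35882876 to 177318308 unique molecular identifiers (UMIs) per well. The second held 1449 cells and 102738398 UMIs, and the third held 40021 cells in 8 libraries with 70239657 to 122420544 UMIs each. At most 13 cell barcodes were shared by any 2 libraries. Primed cells were the authors' clusters 2, 8 and 9 in the first experiment, clusters 0 and 2 in the second and clusters 4 and 10 in the third, and the other cells are called drug-susceptible. Summed over the 6 melanocytic markers (MLANA, PMEL, TYR, SOX10, MITF and S100B), drug-susceptible cells held 4372 to 5469 CPM (UMI counts divided by the total and scaled in the usual way) in the 8 wells of the first experiment, whereas primed cells held 125 to 607. All 4 primed markers (EGFR, NGFR, AXL and NT5E) were higher in primed cells in every well. Of the leukocyte markers 0 of 6 reached 5 CPM, and their sum was 0.423 to 1.56 CPM in primed and 0.868 to 2.13 CPM in drug-susceptible cells, with CD3E at 0 to 0.0179 CPM. Fibroblast markers summed to 106 to 284 CPM in primed against 29.0 to 45.1 CPM in drug-susceptible cells, with COL1A1, PDGFRB and DCN higher and LUM lower in every well and COL1A2 higher in 7 of 8. The 3 endothelial markers summed to 16.6 to 30.3 CPM against 0.230 to 0.874 CPM, with PECAM1 and VWF (1.80 to 2.97 against 0.149 to 0.441 CPM) higher in every well and CDH5 at most 0.054 CPM. The part of these marker shifts in the class I values was not tested.

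Of the 9 genes, 8 lie on the short arm of chromosome 6 in the MHC (hg38, GENCODE annotation): HLA-E at chr6:30489509-30494194, HLA-C at chr6:31268749-31272130, HLA-B at chr6:31353872-31367067, TAP2 at chr6:32821833-32838739, PSMB8 at chr6:32840717-32844679, PSMB9 at chr6:32844136-32859851, TAP1 at chr6:32845209-32853816 and TAPBP at chr6:33299694-33314284. B2M lies at chr15:44711358-44718851. The annotated span of PSMB9 overlaps those of PSMB8 and TAP1, with PSMB9 on the plus strand and TAP1 and PSMB8 on the minus strand. Whether strand was used in counting is not given in the sources used here. In the last 500 bases of the transcripts, where 3′-end reads fall, HLA-B and HLA-C shared 21 of 458 windows of 43 bases (4.59%), so a small part of their reads could be hard to assign, and the other members shared 0.

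The stretch before the start of transcription, where interferon and NF-kB factors act, is shown for 3 members that were higher in primed cells (HLA-B, B2M and TAPBP), for TAP2, which was lower, and for its partner TAP1. It is written 5′ to 3′ on the gene's strand. Sequences are from RefSeq (GRCh38.p14), which held 8 of the 9 members in its promoter table, HLA-E not among them. Capitals mark any match, on either strand, of the interferon-stimulated response element (ISRE; GAAA, 2 bases of any kind, GAAA), the STAT site TTCNNNGAA (GAS), the NF-kB site (GGG, 5 bases of any kind, CC), the cAMP response element TGACGNNA (CRE) or the CCAAT box; matches can overlap, and the capitals that end the B2M stretch open an NF-kB match that runs past the bases shown.
HLA-B (chr6:31357294-31357429, minus strand, -250 to -115 from the start): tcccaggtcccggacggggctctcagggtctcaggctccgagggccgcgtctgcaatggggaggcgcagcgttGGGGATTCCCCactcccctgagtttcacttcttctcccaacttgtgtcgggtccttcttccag
B2M (chr15:44711366-44711395, plus strand, -151 to -122): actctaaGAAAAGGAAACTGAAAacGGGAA
TAPBP (chr6:33314079-33314108, minus strand, -30 to -1): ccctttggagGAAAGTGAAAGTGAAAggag
TAP2 (chr6:32838740-32838989, minus strand, -250 to -1): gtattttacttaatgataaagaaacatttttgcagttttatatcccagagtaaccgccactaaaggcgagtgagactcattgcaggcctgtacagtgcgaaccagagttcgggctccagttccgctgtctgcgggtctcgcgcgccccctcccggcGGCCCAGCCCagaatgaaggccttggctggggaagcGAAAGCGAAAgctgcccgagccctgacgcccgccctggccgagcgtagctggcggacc
TAP1 (chr6:32853817-32853954, minus strand, -250 to -113): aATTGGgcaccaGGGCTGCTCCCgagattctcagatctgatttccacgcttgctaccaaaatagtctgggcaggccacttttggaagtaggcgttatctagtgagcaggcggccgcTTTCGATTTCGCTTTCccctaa
The ISRE letters were found in the 250 bases before the start of 4 of 8 members (B2M, TAPBP, TAP1 and TAP2), and in 3.07% of 27305 promoters of the same length. The NF-kB letters were in 6 of 8 members (53.7% of all promoters), all but PSMB8 and PSMB9, and the CCAAT box in 5 of 8 (33.0%). GAS and CRE letters were in 0 of 8 at the first annotated start (6.78% of all promoters for each), and GAS letters were before a later annotated start of 2 members, PSMB8 and TAP1. B2M and TAPBP, which were higher in primed cells, and TAP2, which was lower, all held the ISRE letters. HLA-B, which had the largest ratio, held 2 overlapping NF-kB matches and no exact match of the ISRE letters. Only exact letters were searched, so sites that depart from them are not counted. For any of these motifs, a lack of matches does not show that a site is absent.

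In untreated WM989 cells, primed cells held more heavy chain and B2M mRNA than drug-susceptible cells of the same well, and less TAP2 mRNA. The UMIs of all cells of a state were summed in each well and divided by the state's total. HLA-B was 99.4 to 224 CPM in primed cells of the 8 wells (median 153). In drug-susceptible cells it was 19.6 to 69.7 CPM (median 36.0), which gave a ratio of 3.21 to 5.93 (median 4.28). B2M was 1254 to 2174 CPM (median 1697) against 612 to 1197 CPM (median 755), a ratio of 1.73 to 2.53 (median 2.12). HLA-C was 194 to 403 CPM (median 287) against 115 to 192 CPM (median 146), a ratio of 1.68 to 2.42 (median 1.95). For these 3 genes the lowest primed well lay above the highest drug-susceptible well. The share of all genes separated in this way was not counted, here or for the genes said below not to overlap. HLA-E, which presents leader peptides of other class I chains to natural killer cells, was 53.4 to 80.9 CPM (median 64.4) against 37.7 to 67.6 CPM (median 60.9), so the states overlapped, and it was higher in primed cells in 7 of 8 wells.

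**Figure D1:**
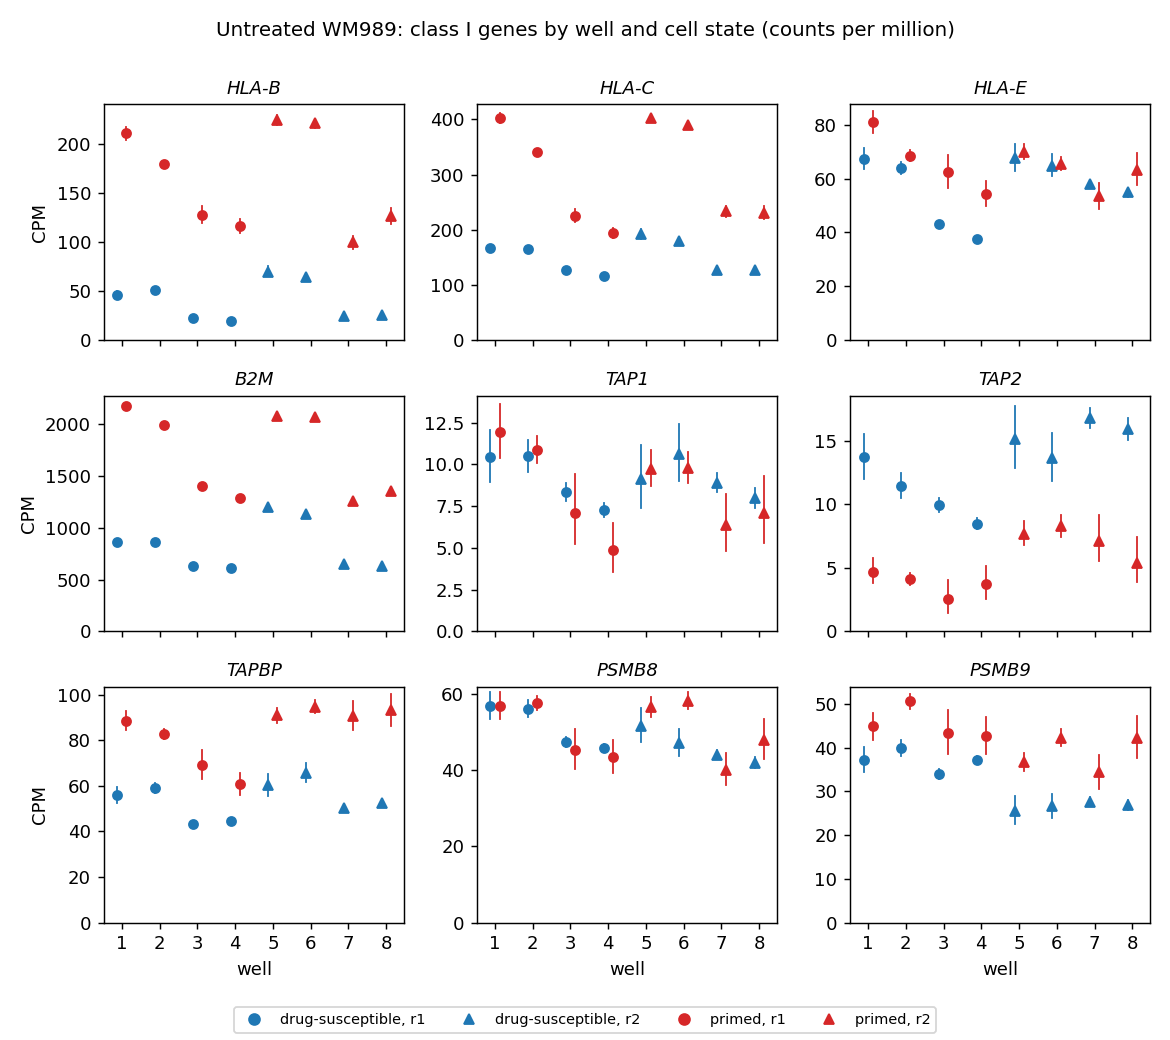
CPM of each member (y axis, from 0) in primed and drug-susceptible cells of each of the 8 wells of untreated WM989 (x axis), with lines for 95% counting intervals, colours for the state and circles or triangles for the first or second replicate. Primed cells lie above drug-susceptible cells in every well for HLA-B, HLA-C, B2M, TAPBP and PSMB9 and below in every well for TAP2.

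The transport and loading genes went in different directions. Tapasin (TAPBP) was 60.6 to 94.7 CPM in primed cells (median 89.6) against 43.4 to 65.6 CPM (median 54.0), a ratio of 1.36 to 1.80, higher in 8 of 8 wells although the ranges overlapped. TAP2, the second chain of the transporter, was 2.51 to 8.28 CPM in primed cells (median 5.05) against 8.46 to 16.7 CPM (median 13.7), a ratio of 0.253 to 0.608. The states did not overlap for TAP2, but its primed value rested on as few as 17 UMIs in a well. TAP1, its partner, was 4.87 to 11.9 CPM (median 8.41) against 7.26 to 10.6 CPM (median 9.01), higher in primed cells in 3 of 8 wells, so no direction held.

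The immunoproteasome subunits differed less between the states than HLA-B, B2M and HLA-C. PSMB9 was 34.4 to 50.6 CPM in primed cells (median 42.5) against 25.6 to 40.0 CPM (median 30.8), a ratio of 1.15 to 1.59, higher in 8 of 8 wells with overlapping ranges. PSMB8 was 40.0 to 58.3 CPM (median 52.3) against 42.0 to 57.0 CPM (median 47.3) and was higher in primed cells in 4 of 8 wells. Over the members, 5 of 9 were higher in primed cells in every well, beside 28.6% of the 9859 genes that averaged at least 5 CPM, and 1 of 9 was lower in every well, beside 33.4%. The states are clusters of these same counts, and by the methods a culture was spread over 2 chip wells, so 8 wells are fewer than 8 cultures, and these values are a description with no test. Primed cells also differed in cycle phase (62.6 to 78.7% of cells in G1 against 20.1 to 31.9%) and in the share of mitochondrial UMIs (6.85 to 10.2% against 11.1 to 15.9%). Among G1 cells alone 4 members were higher in every well, PSMB9 no longer so, beside 24.2% of 9864 genes. In those cells 1 member was lower in every well, beside 26.0%.

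HLA-B and B2M also varied among wells within a state. The wells differed in their share of primed cells: in order of well number it was 56.9, 62.4, 7.87, 6.85, 79.7, 76.9, 9.17 and 9.42%, and the sort that went into a well is not in the labels. In the same order, HLA-B in primed cells was 210.2, 178.9, 127.5, 115.9, 224.1, 220.5, 99.4 and 125.9 CPM, and in drug-susceptible cells 46.2, 51.4, 22.03, 19.6, 69.7, 64.2, 24.7 and 25.7 CPM. B2M was 2173.7, 1990.5, 1404.3, 1282.5, 2073.9, 2067.7, 1254.0 and 1350.0 CPM in primed cells, in well order, and 860.8, 862.1, 628.7, 612.1, 1197.1, 1133.8, 648.2 and 629.3 CPM in drug-susceptible cells. The 4 wells with the most primed cells thus held the 4 highest values of both genes in both states. The part of the wells' primed share in these values was not tested. Per cell, the median B2M level in the first and second replicate was 1658 and 1546 CPM in primed cells and 618 and 621 CPM in drug-susceptible cells. Cells without an HLA-B UMI were 3.05 and 2.55% of primed cells and 35.6 and 31.6% of drug-susceptible cells, at a median depth per well of 32169 to 105951 UMIs per primed cell and 46092.5 to 134402 UMIs per drug-susceptible cell.

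Other genes of the pathway, from a textbook list, were higher in primed cells in every well for 7 of the 12 that reached 5 CPM (among them HLA-F, NLRC5, IRF1, PSME1, PSME2 and PDIA3) and lower for 1 (RFXANK), beside 28.6% higher and 33.4% lower over all genes. NLRC5, the class I transactivator, was 6.66 to 18.6 CPM (median 13.2) against 1.47 to 4.27 CPM (median 2.64), and IRF1, an interferon-induced activator of class I promoters, was 21.97 to 62.3 CPM (median 32.9) against 5.08 to 12.1 CPM (median 7.35). For both genes the states did not overlap. The chaperones CALR and CANX were higher in primed cells in 2 of 8 wells each.

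The constitutive proteasome subunits did not follow the heavy chains: PSMB5 and PSMB7 were lower in primed cells in every well (PSMB7 133 to 155 CPM against 223 to 244 CPM), and PSMB6 in 5 of 8 wells. Of the interferon pathway and target genes, 9 of 19 were higher in every well and JAK2 was lower, beside the same 28.6% and 33.4% of all genes. GBP2, an interferon-induced GTPase, was 16.6 to 52.2 CPM (median 22.8) against 1.22 to 3.44 CPM (median 1.80), without overlap. ISG15, a much used interferon target, was higher in 7 of 8 wells and overlapped between the states. IFNG had 0 UMIs in all wells. Of the NF-kB genes, 3 of 5 were higher in every well (NFKB2, RELA and NFKBIA) and NFKB1 was lower (beside the same shares), and of the MHC class II genes 1 of 7 reached 5 CPM and had no constant direction.

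The primed cells of WM989 were not alike. Of the 3 primed clusters, cluster 2 (1588 cells) held the highest HLA-B of all 11 clusters, 198.4 and 245.5 CPM in the first and second replicate, above cluster 9 (622 cells) with 174.2 and 164.4 CPM and cluster 8 (633 cells) with 102.8 and 107.6 CPM. B2M had the same order, with 2210 and 2280 CPM in cluster 2, 1618 and 1602 CPM in cluster 9 and 1307 and 1224 CPM in cluster 8. The next cluster was the drug-susceptible cluster 4 (1202 cells) with 824.8 and 1071 CPM of B2M, and the other 7 lay between 508.7 and 770.7 CPM. Of these, clusters 10, 0, 1, 6 and 5 overlapped in their replicates with the next in order, and cluster 7 and then cluster 3 lay below them. TAPBP was also highest in cluster 2 (89.96 and 100.9 CPM), while TAP1 was highest in cluster 10 (12.3 and 15.7 CPM), as was TAP2 (12.3 and 23.9 CPM). PSMB9 was highest in cluster 9 in the first replicate (54.7 CPM) and in cluster 2 in the second (40.9 CPM). Cluster 3 was lowest in both replicates for HLA-B (15.1 and 23.6 CPM), B2M (522.4 and 508.7 CPM), HLA-C, HLA-E and PSMB9. TAP2 was higher in the second replicate than in the first in every cluster, and lowest in cluster 8 (3.68 and 5.79 CPM) and cluster 2 (3.67 and 6.80 CPM).

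**Figure D2:**
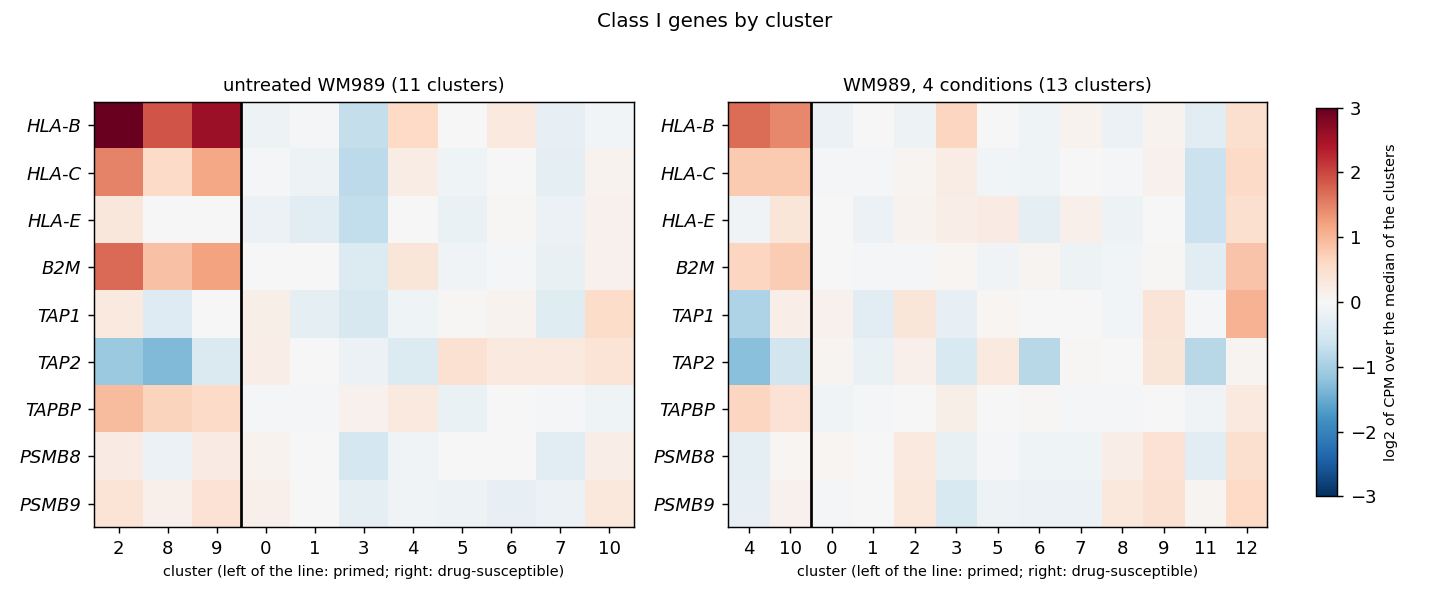
Level of each member (rows) in each cluster (columns) as log2 of its CPM over the median of the clusters, for untreated WM989 (11 clusters) and WM989 under 4 conditions (13), with primed clusters left of the black line. HLA-B, HLA-C and B2M are highest in the primed clusters of untreated WM989, where TAP2 is low, and drug-susceptible cluster 12 under the 4 conditions is high for B2M, TAP1 and PSMB9.

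Across the 11 clusters, the genes whose log2 level followed the members' mean most closely were EPHX1 (Pearson r of 0.984), OAS1 (0.981), DHRS7 (0.968), WDR41 (0.958), MSRA (0.956), PELO (0.954), SCFD2 (0.952) and SP140L (0.951), among 7963 genes that averaged at least 10 CPM. The clusters share libraries and were made from these genes, so r is a description. Of the members themselves, TAP2 ran against the mean (-0.443) and the other 8 ran with it (0.646 to 0.945), whereas over the clusters of the third experiment all 9 ran with it, TAP2 least (0.310) and HLA-E most (0.812). Each member is part of that mean, so a positive r is partly built in and is not read as shared behaviour. Over the 13 clusters of the third experiment, the closest of 7830 genes were others: N6AMT1 (0.914), COQ6 (0.892), NDUFS4 (0.879), GAK (0.876), TRAPPC11 and RIPK1 (0.874 each), RPS6KC1 (0.868) and PDK3 (0.867).

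In WM983B, another melanoma line, most members were higher in primed cells and TAP2 was lower, with ratios nearer to 1 than the medians over the WM989 wells for HLA-B, HLA-C, B2M, TAPBP and TAP2. The primed state of this line was not marked as in WM989. The primed markers were higher (NGFR by a ratio of 4.56, AXL 3.15, NT5E 2.09 and EGFR 1.42), but of the melanocytic markers MLANA (0.0401), PMEL (0.235) and MITF (0.502) were much lower while TYR (0.840) and SOX10 (0.921) were near 1 and S100B (1.35) was higher. Interferon targets were higher too, with IFIT2 at a ratio of 6.20, IFIT1 at 2.41 and IFI44L at 2.27, and the part of these shifts in the class I values was not tested. With 1 library there is no replicate, and the intervals cover counting error only. HLA-B was 560 CPM in 731 primed cells against 400 CPM in the other 718 cells, a ratio of 1.40 (95% interval 1.37 to 1.42). HLA-C had a ratio of 1.28 (1.25 to 1.31), HLA-E of 1.22 (1.18 to 1.27) and B2M of 1.11 (1.097 to 1.12). Among the loading genes the ratio was 1.27 (1.23 to 1.31) for TAPBP, 1.23 (1.16 to 1.31) for TAP1 and 0.737 (0.689 to 0.788) for TAP2, again the member that was lower, at 29.7 against 40.2 CPM. PSMB9 had a ratio of 1.39 (1.34 to 1.45) and PSMB8 of 1.04 (0.997 to 1.09), an interval that included no difference. In all, 0 of 9 members differed by 1.5-fold or more, beside 6.93% of 10482 genes. The primed clusters 0 (640 cells) and 2 (91 cells) were alike in HLA-B (562 and 546 CPM, against 401 and 397 CPM in the drug-susceptible clusters 1 and 3) but not in every member. B2M was 1400 and 1243 CPM against 1239 and 1277 CPM, and PSMB9 131 and 83.4 CPM against 84.4 and 121 CPM, so for both genes cluster 2 lay below the drug-susceptible cluster 3. IRF1 was 50.3 against 22.3 CPM, a ratio of 2.25 (2.104 to 2.42), while NLRC5 had a ratio of 1.15 (0.925 to 1.43), an interval that included no difference, at 3.56 against 3.10 CPM.

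In the third experiment HLA-B, HLA-C, B2M and TAPBP again had higher values in primed cells in all 4 conditions. With PI3Ki these values rested on 25 and 70 primed cells. HLA-B was 39.4 to 61.9 CPM in primed cells of the 8 libraries (median 50.7) and 13.7 to 24.2 CPM in drug-susceptible cells (median 16.7), HLA-C 112 to 216 CPM (median 160) against 85.4 to 108 CPM (median 96.8), and B2M 550.2 to 728 CPM (median 601) against 350.0 to 399 CPM (median 361). The states did not overlap for these 3 genes, and the share of all genes without such overlap was not counted. TAPBP was 42.1 to 71.5 CPM (median 57.4) against 39.2 to 48.0 CPM (median 41.4), higher in 8 of 8 libraries with overlapping ranges. In the first PI3Ki library it was 42.1 against 41.0 CPM on 12 primed UMIs (counting interval 21.7 to 73.5 CPM). Its interval also included the drug-susceptible value in the second PI3Ki, first control and first TGFBRi libraries, so no direction is read there. In the first PI3Ki library HLA-C rested on 32 UMIs (76.7 to 158 CPM, against 85.4 CPM) and HLA-B on 14 (26.8 to 82.3 CPM, against 15.1 CPM). Of the 8 members that averaged at least 5 CPM (TAP1 did not), HLA-B, HLA-C, B2M and TAPBP were higher in every library, beside 18.1% of 9996 genes. None of the 8 was lower in every library, beside 13.2%. HLA-E was higher in primed cells in 6 of 8 libraries and lower in both TGFB1 libraries (29.5 against 35.4 CPM and 33.1 against 37.8 CPM). TAP2 was lower in primed cells in 6 of 8 libraries, and the other 2, both with PI3Ki, rested on 3 and 8 UMIs (10.5 against 6.62 CPM and 8.30 against 8.15 CPM). PSMB8 was higher in 2 libraries, TAP1 in 2 and PSMB9 in 3, so the higher PSMB9 of the first experiment was not found in every library here. In this experiment 44.9 to 68.6% of primed and 30.6 to 43.8% of drug-susceptible cells were in G1. Primed cells were few outside the TGFB1 libraries, and their control values of TAP1 and TAP2 rested on 5 and 11 UMIs each.

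**Figure D3:**
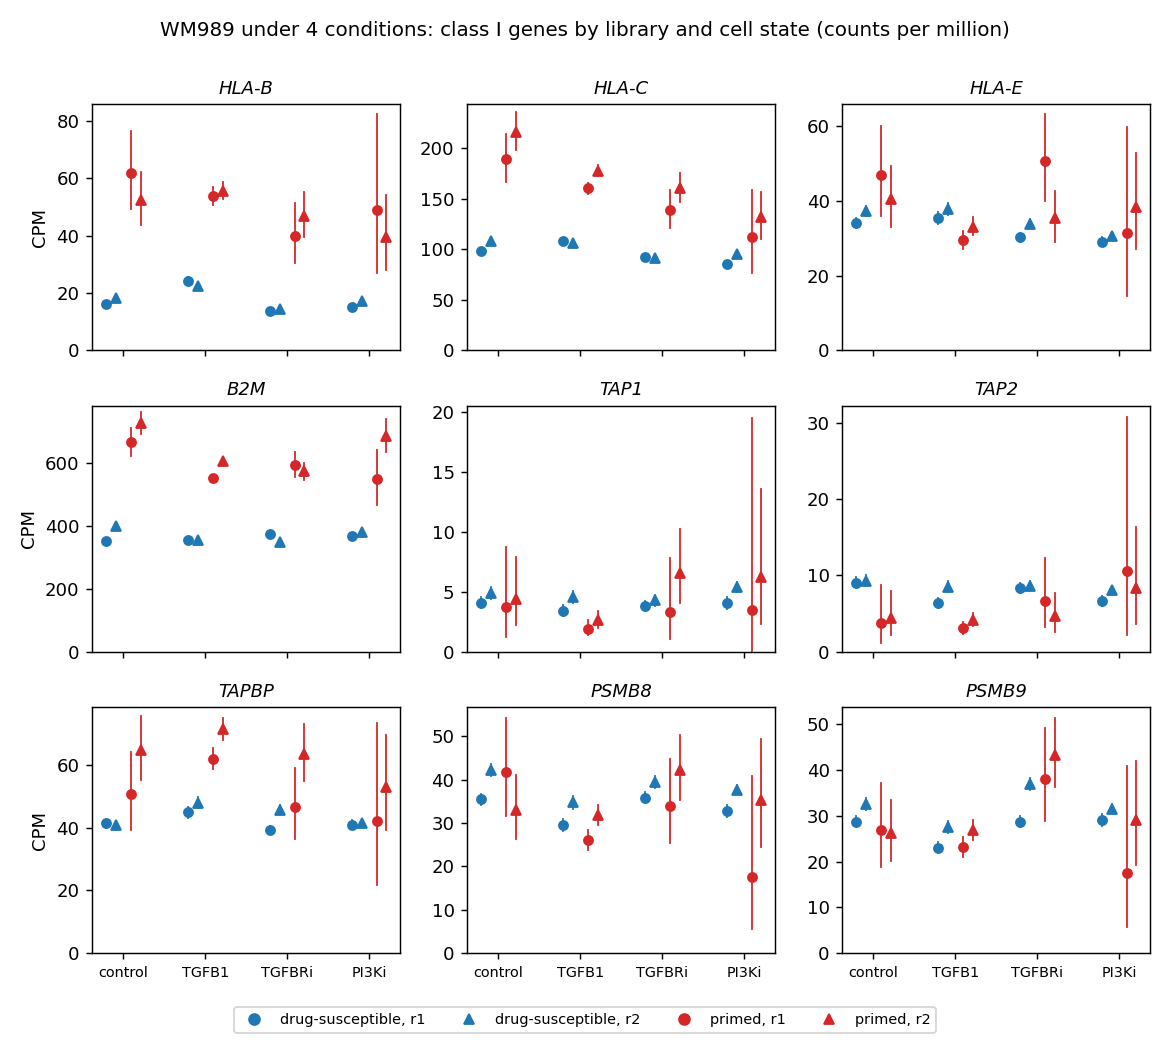
CPM of each member (y axis, from 0) in the 2 libraries of each condition (x axis), for drug-susceptible (blue) and primed (red) cells of WM989, each point being 1 library (circle r1, triangle r2) with its 95% counting interval. HLA-B in drug-susceptible cells is 24.2 and 22.5 CPM with TGFB1 against 16.2 and 18.4 CPM in control, and its primed values lie above its drug-susceptible values in every library.

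TGFB1, a ligand that drives cells toward a mesenchymal program, raised HLA-B, HLA-C and TAPBP and lowered both transporter chains and both immunoproteasome subunits when all cells of a library were summed. The labels name the 2 libraries of a treatment Mix and Primed and the cell table calls them r1 and r2. Which is which could not be settled, and values are given as r1 and r2. Whether the 2 began as different populations of cells was not settled either. HLA-B was 16.95 and 19.5 CPM in control and 31.7 and 31.2 CPM with TGFB1, a log2 fold change of 0.78 ± 0.07 (SE; edgeR adjusted p = 2.58e-08). Both treated libraries lay above both controls. TAPBP went from 41.6 and 41.5 CPM to 49.2 and 54.2 CPM (0.30 ± 0.07, edgeR adjusted p = 0.00171) and HLA-C from 99.7 and 111 CPM to 121 and 125 CPM (0.21 ± 0.07, edgeR adjusted p = 0.0233), both without overlap.

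The peptide supply genes fell. TAP2 was 8.95 and 9.16 CPM in control and 5.55 and 7.34 CPM with TGFB1, a log2 fold change of -0.51 ± 0.10 (edgeR adjusted p = 0.000247), without overlap. PSMB8 went from 35.5 and 41.9 CPM to 28.7 and 34.0 CPM (-0.32 ± 0.06, edgeR adjusted p = 0.000459), PSMB9 from 28.6 and 32.4 CPM to 23.1 and 27.3 CPM (-0.29 ± 0.07, edgeR adjusted p = 0.00237) and TAP1 from 4.06 and 4.86 CPM to 3.03 and 4.04 CPM (-0.35 ± 0.10, edgeR adjusted p = 0.0124). Both treated libraries were below both controls for all 4. The share of all genes separated in this way was not counted, here or in the other comparisons of treated with control libraries. HLA-E (34.3 and 37.3 CPM, then 33.9 and 36.6 CPM) and B2M (359 and 409 CPM, then 404.5 and 421 CPM) did not pass the test (-0.04 ± 0.06 and 0.09 ± 0.07, edgeR adjusted p = 0.713 and 0.383). In all, 7 of 9 members passed, beside 29.0% of 18389 genes; 3 were higher (16.3% of genes) and 4 lower (12.7%).

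In a summed library, fewer cells of a type and less RNA per cell cannot be told apart. The share of primed cells was 2.26 and 4.47% in control and 29.1 and 31.3% with TGFB1, the summed fibroblast markers 31.9 to 33.1 CPM and 90.7 to 92.2 CPM, the endothelial markers 0.611 to 0.679 CPM and 2.81 to 3.63 CPM, and the melanocytic markers 4652 to 4654 CPM and 3310 to 3542 CPM. Of the 5 fibroblast markers COL1A1, PDGFRB and COL1A2 rose (log2 fold changes of 5.06, 3.95 and 2.54) and LUM and DCN did not pass. The part of these shifts in the class I values was not tested. HLA-B, TAP2 and PSMB8 passed in all 11 alternatives, whereas HLA-C, TAP1 and PSMB9 did not pass without the replicate block (edgeR adjusted p = 0.0862, 0.179 and 0.0939). The calls of these 3 and of TAPBP were also lost when single libraries were left out: the first control (HLA-C 0.268, TAP1 0.122, PSMB9 0.0648), the second control (HLA-C 0.110, TAPBP 0.124), the first TGFB1 library (HLA-C 0.293, TAP1 0.109) or the second (TAP1 0.0554), each an edgeR adjusted p.

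Within drug-susceptible cells alone, 4 of the 7 members called over all cells passed the test with TGFB1, and all 7 had the same direction. HLA-B was 16.2 and 18.4 CPM in control and 24.2 and 22.5 CPM with TGFB1 (0.42 ± 0.08, edgeR adjusted p = 0.000671), without overlap. TAP2 fell from 9.04 and 9.31 CPM to 6.39 and 8.48 CPM (-0.33 ± 0.10, edgeR adjusted p = 0.0214), PSMB8 from 35.4 and 42.2 CPM to 29.5 and 34.8 CPM (-0.29 ± 0.07, edgeR adjusted p = 0.00359) and PSMB9 from 28.6 and 32.6 CPM to 23.0 and 27.5 CPM (-0.29 ± 0.07, edgeR adjusted p = 0.00525). In all 3, both treated libraries lay below both controls. The other 5 members did not pass: HLA-C changed by 0.04 (edgeR adjusted p = 0.784), TAPBP by 0.16 (0.13), TAP1 by -0.19 (0.276), B2M by -0.10 (0.448) and HLA-E by 0.02 (0.854) on the log2 scale. The count was thus 4 of 9, beside 14.9% of 17914 genes; 1 was higher (8.56%) and 3 were lower (6.32%). Of these calls, HLA-B was lost without the first TGFB1 library (edgeR adjusted p = 0.121), TAP2 without the first control (0.327) or the first TGFB1 library (0.374), PSMB8 without the second control (0.0900) and PSMB9 without the first control (0.112) or either TGFB1 library (0.0665 and 0.0605). Without the replicate block only HLA-B passed. Drug-susceptible cells include cluster 3, which held 2182 and 1619 cells in the TGFB1 libraries and 56 and 59 in control, with HLA-B at 27.2 CPM, its highest among drug-susceptible clusters, and PSMB9 at 21.9 CPM, its lowest. With those cells left out, a choice made after seeing the data, 2 of 9 members passed, HLA-B (0.29 ± 0.09, edgeR adjusted p = 0.0312) and PSMB8 (-0.24 ± 0.07, 0.0252), and TAP2 (0.356) and PSMB9 (0.171) did not. The share of all genes that passed in that fit is not given here, so these 2 calls have no background beside them.

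**Figure D4:**
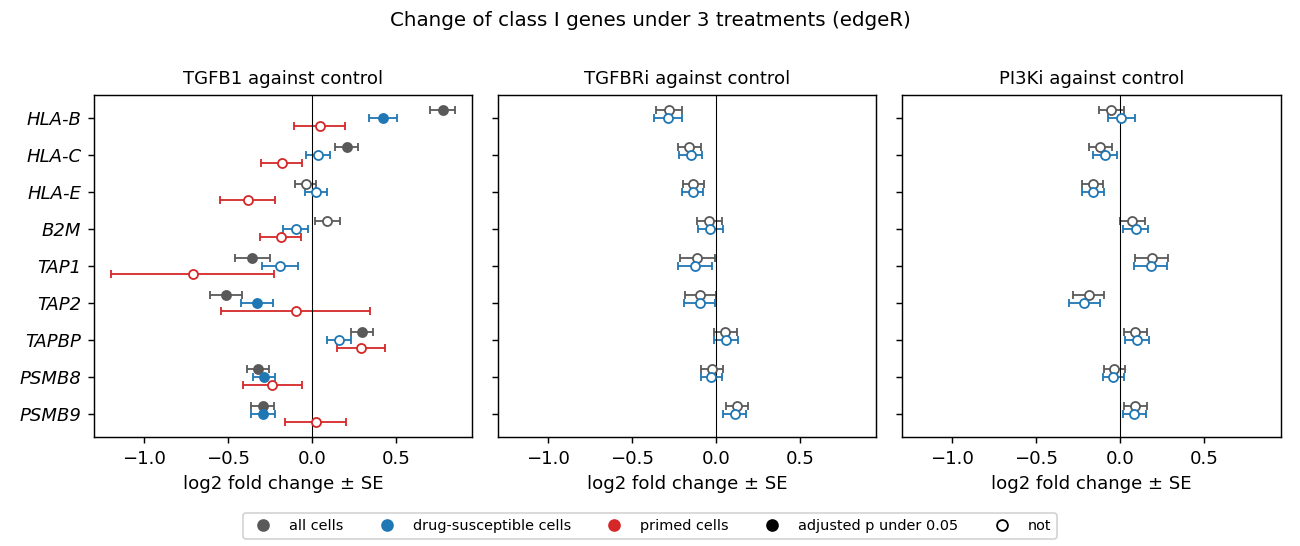
Log2 fold change against control with its SE (x axis, edgeR) for each member (y axis) under TGFB1, TGFBRi and PI3Ki, with a panel per treatment on a shared axis, for all cells and for drug-susceptible cells, with primed cells added for TGFB1; filled points passed an adjusted p of 0.05. Under TGFB1 HLA-B is the member with the largest rise (0.78 over all cells, 0.42 in drug-susceptible cells), TAP2, PSMB8 and PSMB9 lie below 0 in both, and no point passes under TGFBRi or PI3Ki.

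Within primed cells, 0 of 9 members passed the test with TGFB1 (edgeR), beside 13.3% of 10930 genes (6.21% higher and 7.09% lower). HLA-E passed an unadjusted p of 0.05 (-0.38 ± 0.16, edgeR adjusted p = 0.13), the only member of the 9 to do so, and DESeq2 called 0. HLA-B in primed cells was 61.9 and 52.3 CPM in control and 53.8 and 55.7 CPM with TGFB1, with overlap. The fitted change was 0.05 ± 0.15 after TMM scaling, whereas the mean CPM was lower with TGFB1, so no direction is read. Both TGFB1 libraries lay below both controls for HLA-C (160 and 178 against 189 and 216 CPM), B2M (553 and 607 against 668 and 728 CPM), HLA-E (29.5 and 33.1 against 46.95 and 40.6 CPM), TAP1 and PSMB8. These are CPM before TMM scaling, and the control values of TAP1 rested on 5 and 11 UMIs. The fitted changes were -0.18, -0.19, -0.38, -0.71 and -0.23 in that order, and none passed. The share of all genes separated in this way was not counted, so no result is read from it. Most primed cells of the TGFB1 libraries were in cluster 4 (1548 and 1706 cells) and most of those in control in cluster 10 (89 and 159 cells), so the primed cells compared were of different clusters. Whether the change of a gene differed between drug-susceptible and primed cells was not tested.

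With either inhibitor no member passed the test. All 3 treatments were compared with the same 2 control libraries, so their values are not independent. With TGFBRi, HLA-B was 14.2 and 15.4 CPM, below both controls (-0.28 ± 0.08), but 0 of 9 members passed (edgeR adjusted p = 0.0553 for HLA-B), beside 2.53% of genes (1.09% higher and 1.45% lower). An unadjusted p under 0.05 was reached by 3 members, HLA-B, HLA-C and HLA-E, all lower, and DESeq2 called 0. In drug-susceptible cells 0 of 9 passed, beside 2.81% of genes (1.22% higher and 1.59% lower), with 3 at an unadjusted p under 0.05 and HLA-B at -0.29 (edgeR adjusted p = 0.0656). Tested without the filter on low counts, HLA-B passed in both populations (0.0235 over all cells and 0.0134 in drug-susceptible cells, edgeR adjusted p), and in drug-susceptible cells also without the first TGFBRi library (0.0482). With PI3Ki, HLA-B was 15.2 and 17.5 CPM, overlapping control, while TAP2 (6.63 and 8.15 CPM), HLA-C (85.5 and 95.7 CPM) and HLA-E (29.1 and 30.6 CPM) lay below both controls. How many of all genes lay below both controls was not counted for either inhibitor, so no result is read from it. Of the members 0 of 9 members passed over all cells, beside 12.7% of genes (5.83% higher and 6.83% lower), with HLA-E (-0.16 ± 0.06, edgeR adjusted p = 0.102) alone at an unadjusted p under 0.05 and 0 called by DESeq2. In drug-susceptible cells 0 of 9 passed with PI3Ki, beside 12.1% of genes (5.89% higher and 6.22% lower), and 2 members, HLA-E and TAP2 (-0.21, edgeR adjusted p = 0.141), had an unadjusted p under 0.05.

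Regulators and relatives of the members were compared in the same fits. With TGFB1, 2 of the 16 other class I genes tested were higher over all cells, IRF1 among them, and 2 were lower, RFX5 (-0.34) and RFXAP (-0.45), which are subunits of the RFX factor that NLRC5 works with at class I promoters. IRF1 rose from 5.24 and 5.26 CPM to 12.1 and 13.1 CPM (1.25 ± 0.09, edgeR adjusted p = 1.73e-10), without overlap. NLRC5 did not pass (0.21, edgeR adjusted p = 0.34). Of the interferon genes, 9 of 20 were higher and 4 lower (over all genes 16.3% were higher and 12.7% lower, and the other class I genes lay near those shares), with the largest changes in IFI44L (1.72), IRF9 (1.08), JAK2 (-0.89) and IFIT1 (0.85). OAS1 (-0.44) and MX1 (-0.50) were also lower. Within drug-susceptible cells IRF1 (0.45) was still higher, and of the interferon genes 4 of 20 were higher (JAK1, STAT2, IRF9 and IFNGR2) and 2 lower (JAK2 and OAS1), beside 8.56% and 6.32% of all genes.

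The smaller lists are to be read against the 16.3% of all genes that were higher and the 12.7% that were lower with TGFB1. Among the constitutive proteasome genes 1 of 3 was lower over all cells, PSMB7 (-0.22), and PSMB5 and PSMB6 did not pass. Of the NF-kB genes 3 of 6 were higher (NFKB2, NFKBIA and RELB), and 0 of 6 passed in drug-susceptible cells. Of the MHC class II genes 1 of 6 was higher, HLA-DMA (0.80 over all cells, 0.84 in drug-susceptible cells), which loads class II molecules. With PI3Ki, 1 of the 16 other class I genes was called, beside 6.83% of all genes that were lower. It was NLRC5, which fell from 1.32 and 1.30 CPM to 0.740 and 0.776 CPM (-0.68, edgeR adjusted p = 0.00848), resting on 103 and 104 UMIs in control and 52 and 95 with the inhibitor, and in drug-susceptible cells by 0.63 on the log2 scale (edgeR adjusted p = 0.0163). Of the 20 interferon genes, 4 were lower with PI3Ki (IFIT2, -1.09, IFIT1, -0.85, GBP2, -0.60, and IFIT3, -0.43) and 2 were higher (STAT2, 0.52, and IFI6, 0.29), beside 6.83% and 5.83% of all genes. In drug-susceptible cells GBP2 and IFIT3 did not pass (edgeR adjusted p = 0.0797 and 0.0638). With TGFBRi, beside 1.45% of genes lower, 2 of the 20 interferon genes were lower (GBP1, -0.46, and IFIT2, -0.93, the latter not passing in drug-susceptible cells, edgeR adjusted p = 0.0752) and 0 of 16 other class I genes passed (edgeR, and 1 at an unadjusted p under 0.05).

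A small drug-susceptible cluster of the third experiment stood out for a few interferon targets. Cluster 12 (114 cells, 8 to 28 in each library) held 335 CPM of IFIT1, against 2.04 CPM in the other drug-susceptible cells, 1185 against 7.71 CPM of IFIT3 and 1627 against 139 CPM of ISG15. With IFIT2 these were the genes of the interferon list that were higher there in 8 of 8 libraries; MX1 (0.988 against 1.61 CPM) and GBP2 (0.988 against 1.27 CPM) were higher in 2 of 8, each on 2 UMIs, and IRF9 and JAK2 in 3 of 8. B2M was 674 against 368 CPM there and was higher in 8 of 8 libraries, with 385 to 808 CPM (median 660) against 349 to 397 CPM (median 361). PSMB9 was 45.5 against 30.1 CPM, higher in 8 of 8 libraries but resting on 92 UMIs, and HLA-C 147 against 97.2 CPM, higher in 7 of 8. TAP1 was 8.90 against 4.38 CPM on 18 UMIs. HLA-B, at 24.2 against 17.3 CPM on 49 UMIs, was higher in 4 of 8 libraries, whereas the primed clusters 4 and 10 held 55.4 and 46.7 CPM of it. B2M was 583 and 631 CPM in those primed clusters, so summed over libraries cluster 12 reached their B2M level but not their HLA-B level. By library its HLA-B was 0 to 54.0 CPM, which overlapped cluster 10 (36.5 to 58.0 CPM). No UMI of IFNB1, IFNG or IFNL1 was counted in cluster 12. Cluster 12 held 15 and 21 cells in control, 13 and 10 with TGFB1, 10 and 28 with TGFBRi and 8 and 9 with PI3Ki, and IFIT2 was 810 CPM there against 1.57 CPM in the other drug-susceptible cells. The part of the number of these cells in the IFIT1, IFIT2 and IFIT3 values of the treatments was not tested. The clusters were made from these counts, so the values are a description.

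Open chromatin at the starts of the 9 genes did not pass the test between any sort and Mix. The highest MACS2 fold enrichment among peaks within 500 bp of the start was used, and every member had a peak in all 12 libraries. For B2M it was 56.9, 57.0 and 57.1 in Mix and 78.6, 53.4 and 66.5 in EGFR/NGFR-high (log2 fold change 0.20 ± 0.13, limma adjusted p = 0.647). For HLA-B it was 34.9, 34.4 and 31.0 in Mix, 32.4, 40.2 and 26.9 in EGFR-high, 39.4, 39.8 and 35.7 in NGFR-high and 47.6, 43.9 and 29.8 in EGFR/NGFR-high (0.25 ± 0.17 for the last, limma adjusted p = 0.652). Both genes overlapped between Mix and EGFR/NGFR-high. The 3 NGFR-high values lay above the 3 of Mix for HLA-B, for B2M (64.8, 60.4 and 65.8) and for PSMB8 (41.4, 41.1 and 39.96 against 36.3, 38.2 and 39.2), but none of these passed (limma adjusted p = 0.546, 0.534 and 0.709). NGFR-high also lay higher over all promoters, with a median log2 difference of 0.15. With each library centred on its median, the log2 fold changes of HLA-B, B2M and PSMB8 were 0.04, -0.002 and -0.05. For TAP2 the highest fold enrichment was 55.1, 52.8 and 57.6 in Mix and 73.6, 73.9 and 54.1 in NGFR-high (0.27 ± 0.14, limma adjusted p = 0.316), again with overlap.

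**Figure D5:**
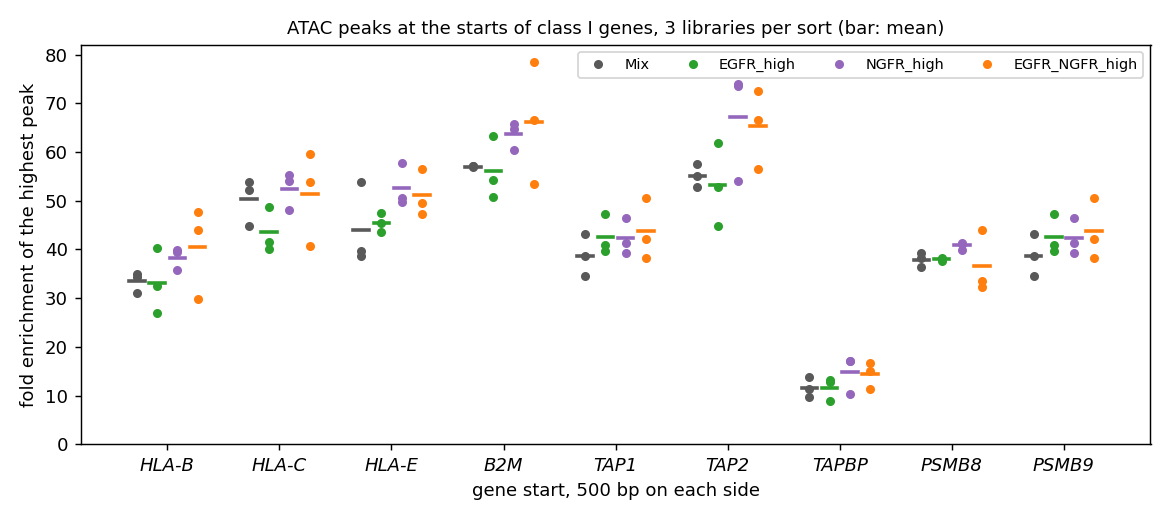
Fold enrichment of the highest peak within 500 bp of each member's start (y axis, from 0) in the 3 libraries of each sort, with a group of points per gene (x axis), a colour per sort and a bar at the mean of the 3. TAPBP has the lowest peaks (8.81 to 17.1), and TAP1 and PSMB9 share a peak.

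TAP1 and PSMB9, whose starts lie 488 bp apart, shared their highest peak (34.5 to 50.6 over the 12 libraries). The peaks of HLA-C were 40.1 to 59.5, of HLA-E 38.6 to 57.7, of PSMB8 32.3 to 44.04 and of TAPBP 8.81 to 17.1. In EGFR-high, NGFR-high and EGFR/NGFR-high against Mix, 0 of 9 member promoters passed (limma), beside 0.252, 0.781 and 0.520% of 12298 promoters, and 0 reached an unadjusted p of 0.05. Over all promoters the median log2 difference was -0.07, 0.15 and 0.07 in these 3 comparisons, and for the members it was -0.01, 0.16 and 0.20. The sorts were made from untreated culture on surface markers, not from the clusters above, and peak height is not a count of molecules.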

How the data were processed

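The authors aligned the single-cell reads with Cell Ranger to hg38 and deposited UMI counts per gene and cell for 3 experiments, with tables giving each cell's well or library, cluster, cycle phase and mitochondrial percent; 18 columns of the third cell table were not used. For ATAC-seq (Bowtie2 2.3.4.1, SAMtools 1.1, MACS2 2.1.1.20160309) the authors deposited a peak list per library with fold enrichment over background, a ratio, and −log10 p and q values. The members, gene lists and tests were chosen with earlier results of these data known. Cells were used as the authors had filtered them, and no doublet caller was run.

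UMIs were summed per library, state or cluster (Python 3.11.15, pandas 2.3.3, SciPy 1.17.1), giving CPM with exact Poisson intervals of 95%, which cover counting error only. For the treatments, the summed counts of the 8 libraries were fitted with edgeR 4.0.16 (quasi-likelihood test, two-sided, TMM, filterByExpr, replicate r1 or r2 as a block, Benjamini-Hochberg over all genes tested, threshold 0.05), and SE was the absolute log2 fold change divided by the square root of F. By the methods the r1 cells were expanded in a well of their own and split over the 4 plates, as were the r2 cells, and deviations of same-numbered libraries correlated at 0.256 to 0.365 in each of 6 pairs of treatments. With 2 libraries per group and 3 residual degrees of freedom, p-values rest on the spread left among these parallel samples after the r1 to r2 difference is taken out. The edgeR test moderates that spread over all genes. ATAC promoters with a peak in all 12 libraries were compared with limma 3.58.1 on log2 fold enrichment; the starts used (canonical transcripts of protein-coding genes in GENCODE v44) were chosen after the members' values at RefSeq starts had been seen. The named-gene rule took all 9 members and, from each other list, up to 4 genes of highest mean and up to 4 of largest change. Some genes that are counted in these lists are not reported here by name. The procedures were tested on simulated data, where fewer changes were recovered among low-count genes. DESeq2 1.42.0 and the other alternatives are given in the closing section. Tables of the 3 experiments were not tested against each other, and since 3′-end UMI counts are not scaled by length, levels were not compared between genes.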

Additional observations from a re-analysis of the deposited data

How the results depend on the processing

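No member reversed its direction among the calls, under any alternative. With TGFB1, the members called over all cells were 4 of 9 without the replicate block and 4 to 6 when 1 library was left out, against 7 with it, and in drug-susceptible cells 1 without the replicate block and 1 to 3 when 1 library was left out, and 2 without the cells of cluster 3 (chosen after seeing the data), against 4. With TGFBRi, 1 member was called without the filter on low counts, over all cells and in drug-susceptible cells, and 0 to 1 in drug-susceptible cells when 1 library was left out. With PI3Ki, a fit to only the 4 libraries of the contrast called 1 member over all cells (HLA-E) and 2 in drug-susceptible cells (HLA-E and TAP2), and G1 cells alone called 1 (TAP2). In WM983B, 1 member passed 1.5-fold among G1 cells (TAP2, ratio 0.623), beside 10.6% of 10456 genes in either direction. Over all genes, TGFB1 calls were 5324 (3164 without the first TGFB1 library, 3515 without the second control), and in drug-susceptible cells 2665 (1189 without the block, 988 to 2098 when 1 library was left out). The all-gene TGFB1 counts over all cells without the block, and in drug-susceptible cells without cluster 3, are not given here. TGFBRi calls were 466 (40 without the block, 748 without the filter, 148 in G1, 168 to 1146 when 1 library was left out) and in drug-susceptible cells 503 (47, 329 by DESeq2, 210 in G1, 206 to 1247). PI3Ki calls were 2328 (649 without the block, 4193 with only the 4 libraries, 719 to 1302) and in drug-susceptible cells 2170 (570, 4499, 632 to 1237). Calls in primed cells with TGFB1 were 1454 (693 by DESeq2, 257 with cluster 10 alone, 584 to 763). The cause was not tested. In ATAC-seq, 0 members were called under each alternative, the replicate block and RefSeq starts among them (8 members and 9632 promoters with the latter). There same-numbered libraries correlated at -0.0593 to 0.121 and others at -0.101 to 0.0789. These ranges overlap, and whether same-numbered libraries shared a batch was not tested. Centring each library on its median moved the NGFR-high calls from 87 higher and 9 lower to 37 and 28, EGFR/NGFR-high from 53 and 11 to 45 and 17, and EGFR-high to 24 and 10. Depth limits TAP1 and TAP2 most, with 1 and 6 TAP1 UMIs in primed cells of the PI3Ki libraries.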
